A study of Mus musculus with 16 samples.

Results

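The microvillus structural genes examined here are 10 genes for proteins that build, tether or position the actin-filled protrusions of the enterocyte surface: Vil1, Espn, Pls1, Eps8, Myo1a, Myo7b, Cdhr2, Cdhr5, Ush1c and Ezr. They were chosen by name, each as the row of the count tables that carries its symbol, and make up 10 of the 24421 genes counted. The libraries were bulk RNA-seq of small intestinal epithelium from wild-type C57BL6/J mice at postnatal day 6 (P6), when pups suckle, and postnatal day 36 (P36), after weaning. At each age 4 mice, 2 female and 2 male, gave a jejunum library and an ileum library, which makes 16 libraries from 8 mice in 4 groups. Epithelium was shaken off an opened segment in EDTA, so each library mixes all epithelial cell types of villus and crypt, and a lower share of enterocytes and less RNA per enterocyte cannot be told apart. All mice were wild type, and the labels list no treatment. By the study's methods the ages also differed in how the mice were killed and in the time in EDTA, which cannot be told apart from age. In each group the female mice are replicates 1 and 2 and the male mice replicates 3 and 4.

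Microvilli form the brush border, the absorptive surface of the enterocyte. Each is a bundle of parallel actin filaments, cross-linked by villin, espin and fimbrin, tied to the membrane by class I myosin and by ezrin, and joined tip to tip to its neighbours by a pair of protocadherins. The cadherin tails bind a complex of harmonin and myosin VIIb at the tips, where an actin capping and bundling protein also sits.

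The promoters of Vil1, Myo1a, Cdhr2 and Cdhr5 are shown because their fitted change with age, taken in the region where it was larger, was past that of every other member, 2 being higher and 2 lower at P36. Each sequence is the 250 bases before the transcription start in RefSeq (GRCm38.p6), 5′ to 3′ on the strand of the gene. They lie at chr1:74409134-74409383 (plus strand), chr10:127705006-127705255 (plus), chr13:54701213-54701462 (plus) and chr7:141276787-141277036 (minus). In the files' mm10 build the genes themselves span chr1:74409384-74435560, chr10:127705256-127720940, chr13:54701463-54736662 and chr7:141269085-141276786, and none of the 10 members shares exon bases with another gene on its strand. Capitals mark matches to motifs searched on both strands.
Vil1: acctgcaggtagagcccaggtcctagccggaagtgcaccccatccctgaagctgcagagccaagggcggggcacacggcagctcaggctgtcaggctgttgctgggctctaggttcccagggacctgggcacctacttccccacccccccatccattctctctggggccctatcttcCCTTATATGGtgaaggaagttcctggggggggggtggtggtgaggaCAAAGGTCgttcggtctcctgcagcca
Myo1a: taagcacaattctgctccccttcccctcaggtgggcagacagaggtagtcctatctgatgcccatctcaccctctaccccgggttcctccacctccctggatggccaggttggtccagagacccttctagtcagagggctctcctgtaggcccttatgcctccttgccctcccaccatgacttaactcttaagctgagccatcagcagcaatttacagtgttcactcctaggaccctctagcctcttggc
Cdhr2: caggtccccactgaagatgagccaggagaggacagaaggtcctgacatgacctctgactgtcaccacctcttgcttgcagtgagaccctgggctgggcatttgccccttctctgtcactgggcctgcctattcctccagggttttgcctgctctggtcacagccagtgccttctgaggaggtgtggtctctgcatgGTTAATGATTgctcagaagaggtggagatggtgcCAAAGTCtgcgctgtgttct
Cdhr5: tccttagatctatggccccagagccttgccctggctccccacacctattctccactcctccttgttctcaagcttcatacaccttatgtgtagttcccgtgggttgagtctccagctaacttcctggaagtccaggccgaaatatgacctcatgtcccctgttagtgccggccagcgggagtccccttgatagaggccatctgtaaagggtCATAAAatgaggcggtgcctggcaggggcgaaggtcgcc
In Vil1 the capitals mark a CArG box, the element bound by serum response factor, 73 to 64 bases before the start and an HNF4 core (CAAAGGTC) 27 to 20 bases before it. In Cdhr2 they mark an HNF1 core (GTTAATGATT here, any base being allowed at 1 position) 54 to 45 bases before the start and an HNF4 core (CAAAGTC) 20 to 14 bases before it. Cdhr5 holds a CDX core (CATAAA) 39 to 34 bases before the start, and Myo1a none of the letters searched. Over the same window of 32841 mouse promoters, the CArG box is found in 1.47%, CAAAGGTC in 1.01%, CAAAGTC in 3.84%, the HNF1 core in 0.371% and CATAAA in 10.8%. Promoters of 8 of the 10 members were searched, Eps8 and Myo7b not among them. Of the others, the third Espn promoter of the table holds CATAAA, and Pls1, Ush1c and Ezr hold none of these letters. The matches are a description of the sequence.

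The libraries held 12159237 to 25947276 counts, and the lowest count of any member was 88, for Espn in P6 ileum replicate 4. Elsewhere no member fell below 821 counts. Of the epithelium markers, Epcam and Cdh1 were high in every library, at 1137 to 2230 and 792 to 1064 CPM (counts scaled to library size by TMM factors). Cldn7 and Elf3 ranged more widely, at 174 to 1152 and 76.9 to 593 CPM, and both were lowest in P6 ileum replicate 4. The 10 genes together took 0.597 to 1.62% of all counts of a library. Libraries that stand apart were P6 ileum replicate 4, low for most members and described below, P6 ileum replicate 2, with 80.5 CPM of the smooth muscle gene Myh11 against 0.736 CPM or less in the others of its group but a summed level of the 10 genes (3298 CPM per kb) between those of replicates 1 and 3, and P36 ileum replicates 1 and 3, the highest and lowest of their group for all 10 members.

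Per kb of exon, the 2 protocadherins led the set at P6 and the bundler villin and the motor myosin Ia led it at P36. In the P6 jejunum, Cdhr5 averaged 999 ± 70.9 CPM per kb, Cdhr2 691 ± 49.2, Vil1 483 ± 20.9 and Pls1 403 ± 24.7 (SD, n = 4). Ezr followed at 273 ± 18.6, Myo7b at 167 ± 12.0, Eps8 at 118 ± 9.39, Ush1c at 97.4 ± 2.56, Myo1a at 94.8 ± 13.3 and Espn at 25.8 ± 2.73 CPM per kb. The order of Ush1c and Myo1a, and of Eps8 and Myo1a, lay within their spread. In the P36 jejunum, Vil1 averaged 1271 ± 98.2, Myo1a 731 ± 20.9, Pls1 593 ± 59.2, Cdhr5 474 ± 32.7, Cdhr2 395 ± 38.9 and Ezr 377 ± 46.9 CPM per kb. Cdhr2 overlapped with both Cdhr5 and Ezr there, while Myo7b (125 ± 5.03), Ush1c (93.8 ± 5.71), Eps8 (60.4 ± 6.59) and Espn (28.9 ± 4.87) stood in that order without overlap. The ileum kept the same leaders. Cdhr5 averaged 979 ± 229 and Cdhr2 776 ± 200 CPM per kb in the P6 ileum, against Vil1 at 872 ± 417 and Myo1a at 583 ± 222 in the P36 ileum, where Cdhr5, Ezr, Pls1 and Cdhr2 (415, 357, 344 and 323) were within 1 SD of each other. Exon length in these files is the union of all annotated exons.

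**Figure D1:**
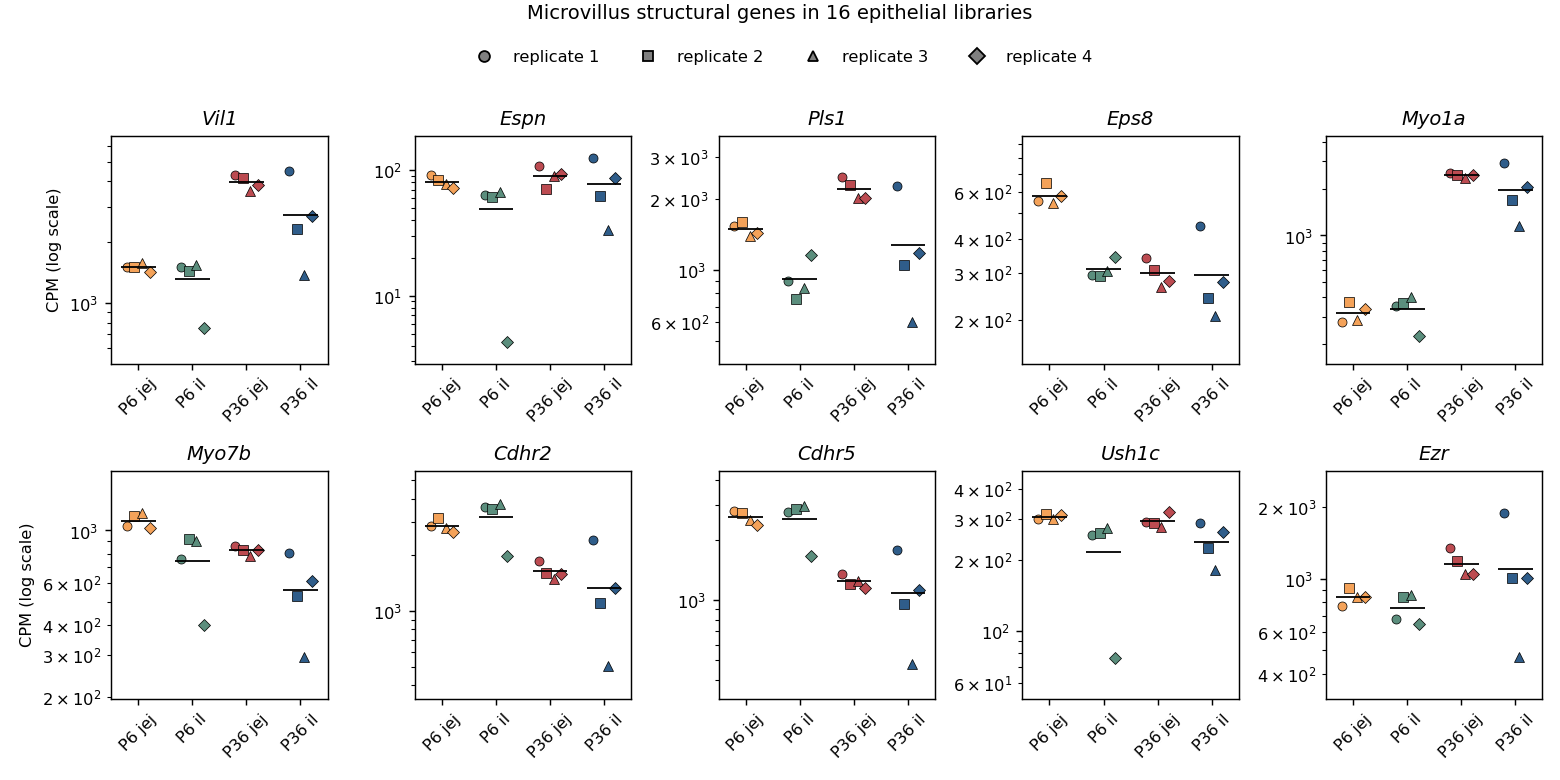
CPM of each of the 10 genes (log axis) in the 4 libraries of each group, with the replicate as symbol and the group mean as a line. Myo1a sits at 225 to 402 CPM in all P6 libraries and at 1152 to 2924 in all P36 libraries, and P6 ileum replicate 4 falls below the rest of its group for 8 genes.

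A ratio within a library does not depend on how libraries are scaled, so each member was also taken as a share of the summed CPM per kb of the 10 genes. Shares add to 100%, so that a higher share of 1 member forces lower shares elsewhere. Vil1 made up 13.6 to 15.4% of the sum in jejunum libraries and 11.5 to 14.8% in ileum libraries at P6, against 29.9 to 31.5% and 27.4 to 28.4% at P36. Myo1a went from 2.43 to 3.46% over all P6 libraries to 16.6 to 22.0% over all P36 libraries. The cadherins Cdhr2 and Cdhr5 together held 50.4% ± 1.19 (SD, n = 4) of the sum for the jejunum and 57.5% ± 2.95 for the ileum at P6, against 20.9% ± 0.648 and 22.8% ± 2.24 at P36. In each of the 8 P6 libraries Cdhr5 and Cdhr2 ranked first and second, and in each of the 8 P36 libraries Vil1 and Myo1a did. Inside each pair the ratios differed: Cdhr2 stood at 0.647 to 0.868 of Cdhr5 over the 16 libraries, whereas Myo1a went from 0.478 to 1.11 times Myo7b at P6 to 5.75 to 7.70 times at P36. The bundlers Vil1, Espn and Pls1 together went from 27.2% ± 0.505 to 45.6% ± 0.826 (jejunum) and from 22.9% ± 2.49 to 39.3% ± 0.964 (ileum). Pls1 within them went from 0.836 ± 0.0633 to 0.466 ± 0.0177 of the Vil1 level in the jejunum.

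**Figure D2:**
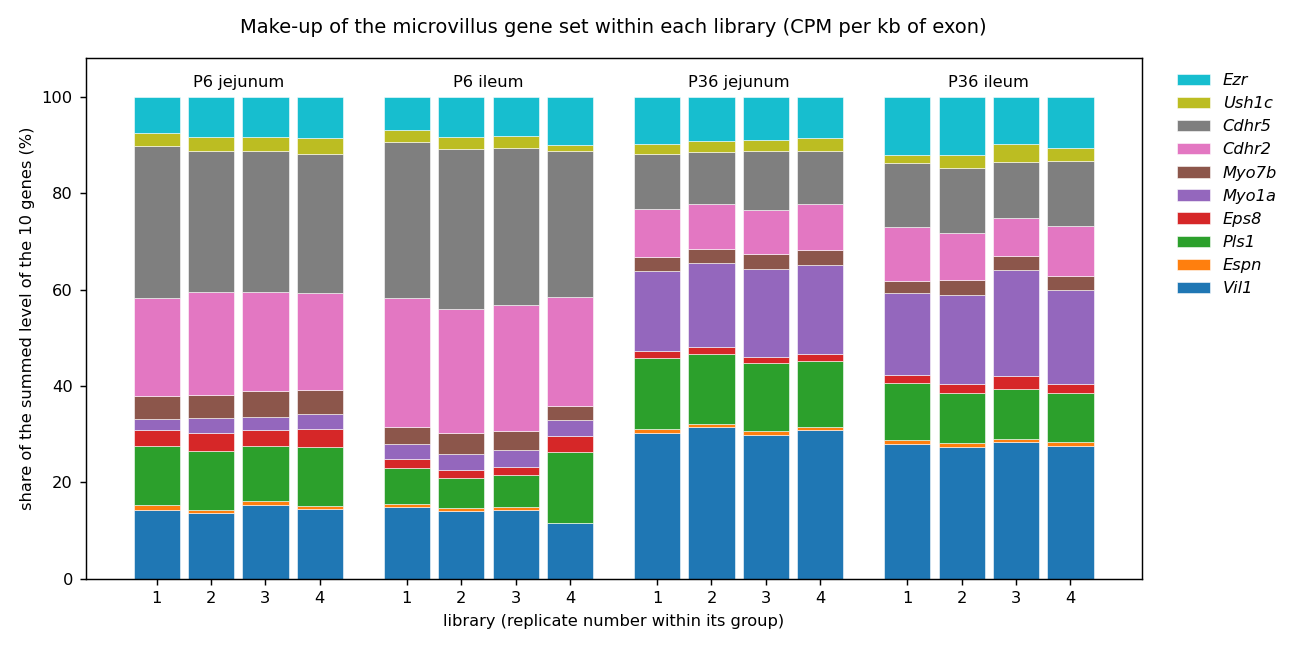
Stacked shares (%) of the summed CPM per kb of the 10 genes, 1 bar per library, libraries in replicate order within each group. Cdhr2 and Cdhr5 fill 49.1% or more of each P6 bar and 24.5% or less of each P36 bar, where Vil1 and Myo1a take the largest shares.

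With age, 4 of the 10 members passed the test in the jejunum (edgeR's quasi-likelihood test, Benjamini-Hochberg adjusted p under 0.05 over 13429 genes), where 51.6% of all genes tested passed. In the ileum 4 passed as well, against 55.7% of all genes. Both shares lie below those of all genes. Vil1 and Myo1a were higher at P36 in both regions and Cdhr5 lower in both. Cdhr2 passed as lower in the ileum and Eps8 as lower in the jejunum. Cell type markers moved with age too. Of 5 goblet cell genes, all 5 were higher at P36 in both regions, among them the mucin gene Muc2 (7.20-fold in the jejunum and 3.66-fold in the ileum), and their sum went from 1531 to 1888 CPM to 6778 to 7850 CPM (jejunum) and from 1597 to 3583 CPM to 7469 to 14317 CPM (ileum). The Paneth cell gene Lyz1 was 410- and 314-fold higher, and the cycling cell gene Top2a 2.02- and 2.94-fold. Of 5 enterocyte genes, Alpi (4.82- and 9.85-fold lower) and Apob (3.61- and 4.68-fold lower) fell, Slc5a1 rose in both regions and Fabp2 in the ileum, and their sum went from 26746 to 30928 CPM to 16347 to 23713 CPM (jejunum) and from 9372 to 18222 CPM to 1844 to 15982 CPM (ileum). All 5 leukocyte genes were higher at P36 in the jejunum, where they summed to 54.3 CPM or less, and 1 was in the ileum. The part of these markers in the members' changes was not tested. Myo1a was the 1 member past a log2 fold change of 2, the size the study's volcano plots used, which 16.4% of genes reached in either region. The median log2 fold change of the members was 0.05 in the jejunum and 0.31 in the ileum, beside -0.01 and -0.03 over all genes tested.

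Myo1a, the class I myosin that bridges the actin core to the membrane, had the largest change. It was at 276, 373, 288 and 336 CPM in P6 jejunum replicates 1 to 4 and at 2522, 2464, 2354 and 2463 CPM in the P36 jejunum. In the ileum it was at 353, 368, 402 and 225 CPM at P6 and at 2924, 1700, 1152 and 2045 CPM at P36. The lowest P36 library lay above the highest P6 library in both regions. The fitted log2 fold change was 2.95 ± 0.26 (SE) in the jejunum, a 7.71-fold rise (adjusted p = 1.18e-07), and 2.54 ± 0.26 in the ileum, 5.80-fold (adjusted p = 5.48e-07, edgeR). Myo7b, the motor of the tip complex, did not pass in either region as fitted, but passed in both with libraries scaled to 4 epithelial genes (-0.80, adjusted p = 0.00473, and -1.09, 3.05e-04, edgeR), which moves the median of all genes by -0.38 (jejunum) and -0.75 (ileum). Of the genes used for this scaling, Cldn7 and Elf3 were themselves called higher at P36 in the ileum (2.09- and 2.68-fold), and Elf3 in the jejunum (1.76-fold). Myo7b was at 1042, 1149, 1184 and 1024 CPM in the P6 jejunum and 862, 832, 782 and 832 CPM in the P36 jejunum, which do not overlap, and the log2 difference was -0.41 (95% interval -0.98 to 0.16). In the ileum the difference was -0.41 (-0.98 to 0.16) and the groups overlapped, at 400 to 920 against 294 to 807 CPM. It passed in the ileum without P6 ileum replicate 4, at -0.62 (adjusted p = 0.0286, edgeR).

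Vil1, which bundles, caps and severs actin, stood at 1514, 1510, 1578 and 1420 CPM in the P6 jejunum and at 4278, 4144, 3603 and 3825 CPM in the P36 jejunum. The groups did not overlap, and the log2 fold change was 1.40 ± 0.29, a 2.63-fold rise (adjusted p = 9.00e-04, edgeR). In the ileum it was at 1499, 1444, 1546 and 752 CPM at P6 and at 4487, 2318, 1381 and 2688 CPM at P36. P36 ileum replicate 3 lay inside the P6 range, and the log2 fold change was 1.05 ± 0.29, 2.07-fold (adjusted p = 0.00617). This call held in all 16 fits that left out 1 library and under 8 of 9 alternatives. It was lost under 1 alternative, with libraries scaled to epithelial genes (0.35, adjusted p = 0.197, edgeR). The share of Vil1 in the set, which needs no scaling, was higher in all 4 P36 ileum libraries than in all 4 of P6. A share also rises when other members fall, as Cdhr2 and Cdhr5 did in the ileum, so it cannot show whether Vil1 itself rose.

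Pls1, the intestinal fimbrin, was at 1534, 1597, 1395 and 1439 CPM in the P6 jejunum and 2464, 2277, 2018 and 2012 CPM in the P36 jejunum. These groups did not overlap, but the difference of 0.56 ± 0.29 did not pass (adjusted p = 0.116, edgeR). It passed without P36 ileum replicate 1 (adjusted p = 0.0260) and without P36 ileum replicate 3 (0.0413), whose spread enters the shared fit. In the ileum Pls1 was at 756 to 1153 CPM at P6 and 602 to 2258 CPM at P36, a log2 difference of 0.48 ± 0.29, and 0.72 (adjusted p = 0.0162) without P36 ileum replicate 3. With scaling to epithelial genes it was -0.40 (0.292). Espn, the bundler that lengthens microvilli, was at 72.1 to 91.8 CPM in the P6 jejunum and 71.3 to 109 CPM in the P36 jejunum. The groups overlapped, and the difference was 0.16 with a 95% interval of -0.97 to 1.29. In the ileum it was 0.66 (-0.47 to 1.79), with P6 ileum replicate 4 at 4.32 CPM and the other 3 P6 libraries at 60.8 to 66.9 CPM. Without that library it was 0.28 (adjusted p = 0.432).

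Cdhr5, the protocadherin that pairs with Cdhr2 between microvillus tips, was at 2804, 2752, 2545 and 2402 CPM in the P6 jejunum and at 1362, 1211, 1250 and 1159 CPM in the P36 jejunum. The groups did not overlap and it fell by 1.08 ± 0.29 on the log2 scale, a 2.11-fold decrease (adjusted p = 0.00602, edgeR). In the ileum it was at 2761, 2882, 2971 and 1678 CPM at P6 and at 1795, 962, 480 and 1126 CPM at P36. The groups overlapped by P6 replicate 4 and P36 replicate 1, and the decrease was 2.36-fold (log2 fold change -1.24 ± 0.29, adjusted p = 0.00213). Cdhr2 was at 3588, 3509, 3745 and 1972 CPM in the P6 ileum and at 2391, 1099, 507 and 1327 CPM in the P36 ileum. It overlapped by the same libraries, and its log2 fold change was -1.27 ± 0.34, a 2.41-fold decrease (adjusted p = 0.00470). In the jejunum Cdhr2 went from 2847, 3129, 2784 and 2647 CPM to 1855, 1607, 1476 and 1576 CPM without overlap. Its change of -0.81 ± 0.33 had an adjusted p of 0.0539 and passed when P6 ileum replicate 4 (0.0327), P36 ileum replicate 1 (0.0161) or P36 ileum replicate 3 (0.0108) was left out, and with sex as a covariate (0.0417).

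Eps8, the capping and bundling protein of the microvillus tip, was at 555, 646, 543 and 577 CPM in the P6 jejunum and 339, 307, 265 and 280 CPM in the P36 jejunum. The groups did not overlap and it fell by 0.96 ± 0.19 on the log2 scale, 1.95-fold (adjusted p = 6.39e-04, edgeR). In the ileum it was at 294, 291, 304 and 344 CPM at P6 and 448, 242, 206 and 277 CPM at P36, where the groups overlapped and the difference was -0.07 (95% interval -0.48 to 0.34). Without P36 ileum replicate 1 that difference was -0.35 (adjusted p = 0.0436), without P6 ileum replicate 4 -0.01 (0.958) and with scaling to epithelial genes -0.90 (0.00444, edgeR). Ush1c, the gene of the scaffold harmonin, was at 298, 314, 299 and 311 CPM in the P6 jejunum and 291, 288, 278 and 319 CPM in the P36 jejunum, with overlap and a difference of -0.05 (-0.64 to 0.53). In the ileum its difference was 0.14 (-0.45 to 0.73), -0.14 without P6 ileum replicate 4 (adjusted p = 0.355) and -0.47 (adjusted p = 0.0426, edgeR) with libraries scaled to epithelial genes. Ezr, the gene of the membrane linker ezrin, stood at 772, 912, 838 and 836 CPM in the P6 jejunum and 1351, 1187, 1050 and 1047 CPM in the P36 jejunum. These groups did not overlap, yet the difference of 0.47 (-0.14 to 1.07) did not pass. In the ileum it was 0.54 (-0.06 to 1.15), 0.80 (adjusted p = 0.00500, edgeR) without P36 ileum replicate 3 and -0.23 (0.456) with scaling to epithelial genes.

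In the jejunum 8 of the 10 members had P6 and P36 libraries that did not overlap, beside 63.8% of all genes tested, and in the ileum 1 did, Myo1a, beside 44.4%. The summed level of the 10 genes ranged 1.12-fold over the P6 and 1.17-fold over the P36 jejunum libraries. In the ileum these ranges were 1.65- and 3.29-fold. A fit on the 8 jejunum libraries alone called those 8 members, among 8901 genes called in all. It added Pls1 (0.57, adjusted p = 4.08e-04), Ezr (0.48, 0.00187), Myo7b (-0.40, 0.00123) and Cdhr2 (-0.80, 4.80e-05) (edgeR). The fit over 16 libraries, which shares 1 spread with the ileum, called 4 members, among 6927 genes called in all.

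**Figure D3:**
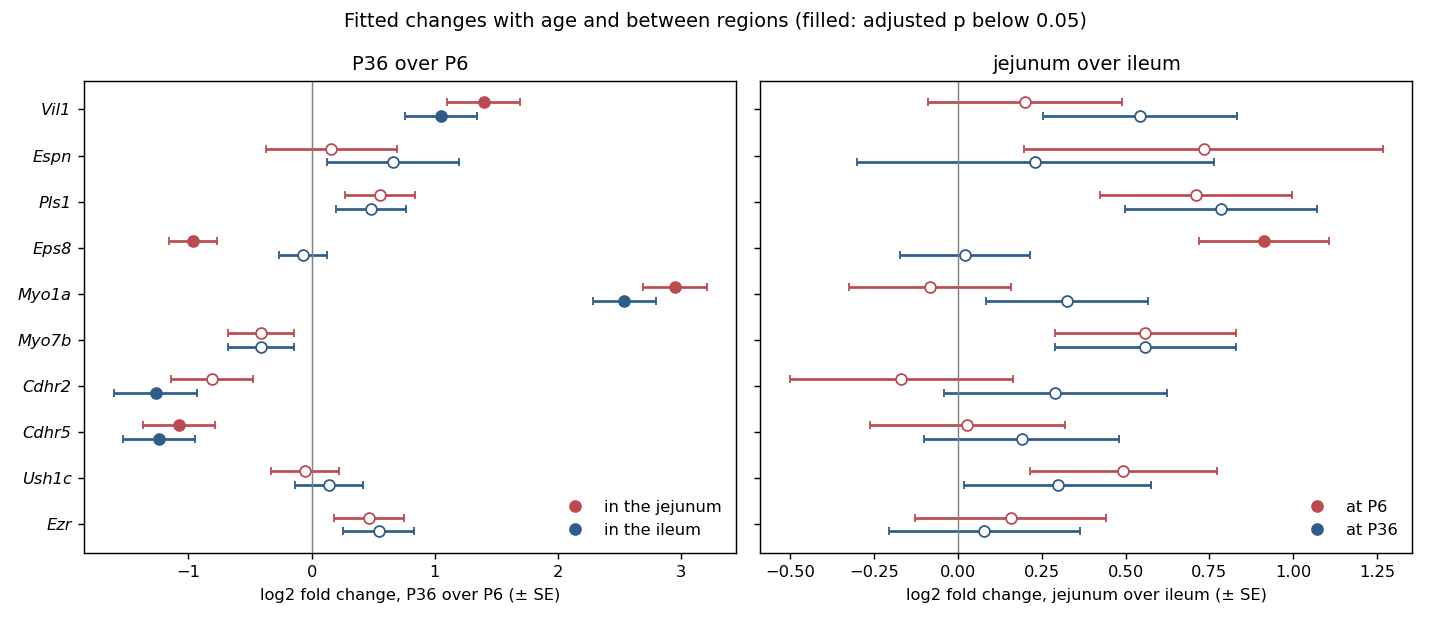
Fitted log2 fold changes ± SE of the 10 genes, with age on the left (jejunum and ileum) and between regions on the right (P6 and P36), filled where the adjusted p was below 0.05. Myo1a at 2.95 and 2.54 lies farthest from 0, and Eps8 at P6 is the 1 filled point on the right.

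Between regions at P6, 1 of 10 members passed, where 25.9% of all genes tested did and 11.1% passed as higher in the jejunum. That member was Eps8, at 543 to 646 CPM in the jejunum and 291 to 344 CPM in the ileum without overlap (log2 difference 0.91 ± 0.19, 1.88-fold, adjusted p = 0.00257, edgeR). It passed in each fit that left out 1 library and under each alternative that kept the 0.05 threshold alone. Espn, Pls1, Myo7b and Ush1c also had jejunum libraries wholly above those of the ileum, so that 5 of 10 members did not overlap, beside 30.1% of all genes. Pls1 was at 1395 to 1597 CPM in the jejunum and at 756 to 1153 CPM in the ileum, a log2 difference of 0.71 ± 0.29 (adjusted p = 0.0799). It passed without P6 ileum replicate 4 (0.85, adjusted p = 0.0432), without P36 ileum replicate 1 (0.0134) and without P36 ileum replicate 3 (0.0231), and DESeq2 called it too (adjusted p = 0.0436). The differences of Espn (0.73, 95% interval -0.40 to 1.87), Myo7b (0.56, -0.01 to 1.13) and Ush1c (0.49, -0.10 to 1.08) did not pass, and were 0.35, 0.35 and 0.21 without P6 ileum replicate 4. No member was past a log2 difference of 2, which 6.5% of all genes were, nor was any at P36, where 3.6% were. The other 5 members lay at P6 between -0.17 (Cdhr2) and 0.20 (Vil1). Without P6 ileum replicate 4, Cdhr2 was at -0.34, Myo1a at -0.23, Cdhr5 at -0.13 (0.03 with it), Vil1 at 0.01 and Ezr at 0.09 (0.16 with it). The median over the members was 0.35, beside -0.05 over all genes.

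The P6 mice fall into 2 pairs by the first part of their labels, and what that part marks is not stated. Counts of P6 jejunum libraries differed less within a pair (chi-square per gene 13.2 and 19.5) than across pairs (34.3 to 45.9). The Paneth cell gene Itln1 was at 782 and 557 CPM in P6 jejunum replicates 1 and 3, against 7.09 and 4.36 CPM in replicates 2 and 4. Within the pair of replicates 1 and 3 the jejunum stood above the ileum by 0.88 for Eps8, 0.75 for Pls1, 0.37 for Espn and 0.17 for Ush1c (log2). In the pair of replicates 2 and 4 the differences were 0.95 and 0.70 for Eps8 and Pls1, against 2.25 and 1.14 for Espn and Ush1c. Eps8 and Pls1 thus held in each pair, while most of the Espn and Ush1c difference came with the pair that contains P6 ileum replicate 4. Vil1 differed by 0.02 in the first pair and 0.49 in the second. Myo7b (0.42 and 0.84) and Ezr (0.084 and 0.25) were also above 0 in each pair. Myo1a (-0.42 and 0.30), Cdhr2 (-0.38 and 0.13) and Cdhr5 (-0.10 and 0.23) turned sign between the pairs.

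At P36 no member passed between regions, where 16.1% of all genes did. At an unadjusted p under 0.05 there was 1, Pls1, and DESeq2 called 1, the same gene (log2 difference 0.78, adjusted p = 0.0381). In edgeR its difference was 0.78 ± 0.29, 1.72-fold, at an adjusted p of 0.0765, and 0.94 (adjusted p = 0.0287) in edgeR with the mouse as a block, since both regions came from the same mice. No member had regions that did not overlap, beside 26.9% of all genes. All 10 differences were above 0, from 0.02 for Eps8 to 0.78 for Pls1, though those of Eps8 and Ezr fell below 0 when libraries were scaled by their totals and that of Eps8 with a GC correction. Without P36 ileum replicate 3, those of Espn (-0.0195), Eps8 (-0.11), Cdhr5 (-0.0567) and Ezr (-0.17) were below 0. They had a median of 0.29, beside -0.04 over all genes. Leaving out P36 ileum replicate 1 gave 0.90 for Vil1 (adjusted p = 0.0213) and 1.21 for Pls1 (0.00108), the 2 members then called, among 2726 genes in all. Leaving out P6 ileum replicate 4 gave 0.78 for Pls1 (adjusted p = 0.0450). Scaling to epithelial genes called 4 members here, Vil1, Pls1, Myo1a and Myo7b, among 1931 genes in all, against 2163 as reported. A GC correction called 2, Myo7b and Ush1c, among 3099 genes in all. With the block it called 4, Vil1, Pls1, Myo7b and Ush1c, among 3813 genes in all.

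Whether the regional difference changed with age was tested as an interaction, which 8.69% of all genes and 0 of 10 members passed (edgeR, with 1 member, Eps8, at an unadjusted p under 0.05). The regional log2 difference of Eps8 was 0.91 at P6 and 0.02 at P36, and the change of 0.89 ± 0.27 had an adjusted p of 0.0550. It passed in DESeq2 (0.90, adjusted p = 0.0173), in edgeR with the mouse as a block (0.83, 0.0418), with a GC correction (1.07, 0.0126), and without P6 ileum replicate 4 (0.95, 0.0322), P36 ileum replicate 1 (0.62, 0.0461) or P36 ileum replicate 3 (1.03, 0.0183). It did not pass in the other 13 fits that left out 1 library, nor under 5 of the 9 alternatives that kept all libraries, and was lowest with scaling to epithelial genes (0.44, adjusted p = 0.424). For the other members the interaction lay between -0.46 for Cdhr2 and 0.50 for Espn, with 95% intervals that include 0.

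The P36 ileum libraries differed in the amount of the whole set more than in its make-up. The summed level was 5146, 2719, 1562 and 3132 CPM per kb in replicates 1 to 4, a 3.29-fold range, against 1.17-fold in the P36 jejunum. Within this group the share of Vil1 ranged 1.04-fold and that of Cdhr5 1.17-fold, with Myo1a at 1.30-fold, Cdhr2 at 1.43-fold and Ush1c at 2.08-fold. Ush1c had the narrowest range in CPM, 181 to 286, so its share was highest in replicate 3 at 3.70%. Enterocyte marker genes followed the same replicates. The lipid-binding gene Fabp2 was at 7270, 1576, 471 and 1725 CPM and the glucose transporter gene Slc5a1 at 2084, 985, 456 and 1082 CPM in replicates 1 to 4. The 5 enterocyte markers, with Alpi, Apob and Mttp, summed to 15982, 4646, 1844 and 4893 CPM, an order shared with the summed members. The Paneth cell gene Lyz1 was highest in replicate 3 at 10235 CPM, against 3672 to 5505 CPM in the others. Gata4, a factor of the upper small intestine, was at 31.6 CPM in replicate 1 and 0.735 to 5.56 CPM in the others, against 174 to 193 CPM in the P36 jejunum. The part of these cell type and position markers in the spread was not tested.

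**Figure D4:**
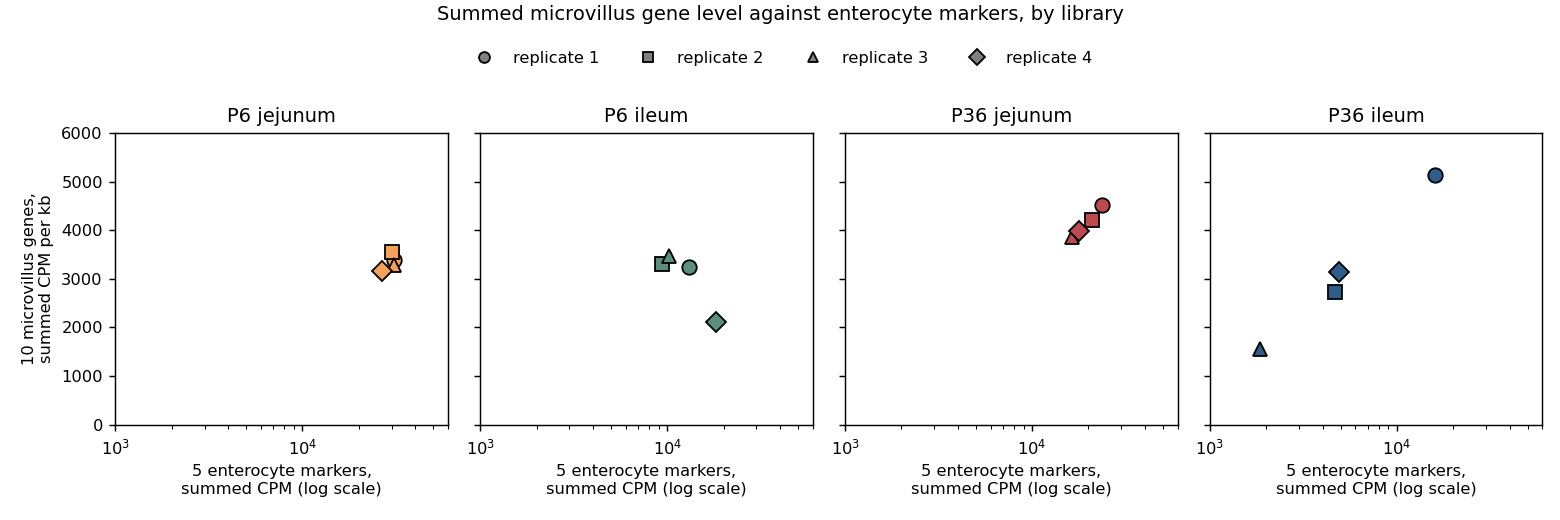
Summed CPM per kb of the 10 genes against the summed CPM of 5 enterocyte markers (log axis), 1 panel per group and 1 point per library. In the P36 ileum the points run from 1562 to 5146 CPM per kb as the markers run from 1844 to 15982 CPM, while P6 ileum replicate 4 has the lowest summed level of its group (2102) and the highest marker sum (18222).

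P6 ileum replicate 4 also differed from the other P6 ileum libraries. Espn was 14.8-fold below the mean of the other 3, Ush1c 3.44-fold, Myo7b 2.16-fold, Vil1 1.99-fold, Cdhr2 1.83-fold, Cdhr5 1.71-fold, Myo1a 1.66-fold and Ezr 1.23-fold. Pls1 and Eps8 were higher in it, at 1153 against a mean of 831 CPM and 344 against 296 CPM. These deviations followed transcript GC content: Pls1 at 42.7% and Eps8 at 47.6% were the 2 members below the median of all genes, 49.8%, and Espn at 62.1% the highest. Spearman's rho between the deviation and GC content was -0.88 over the 10 members and -0.75 over 12948 genes, points that all share the 1 library. Of the 5 enterocyte genes, its Apob, Fabp2, Mttp and Slc5a1, at 13510, 949, 1823 and 472 CPM, were above those of the other 3 libraries. Its Alpi was below them, at 1469 against 2636 to 2704 CPM. Gata4 was highest in this library too, at 34.7 CPM against 8.98, 18.4 and 3.25 CPM in replicates 1 to 3. In the P6 jejunum Gata4 was at 155 to 164 CPM. The part of cell type and position in the deviations of this library was not tested. With a GC correction of each library, the age changes of Vil1, Myo1a, Cdhr2 and Cdhr5 in the ileum still passed, and Pls1 and Myo7b passed in addition (0.86, adjusted p = 0.0136, and -0.54, 0.0192, edgeR). At P6 the corrected regional differences passed for Eps8, Pls1 (0.97, 0.0138) and Ush1c (0.34, 0.0305).

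**Figure D5:**
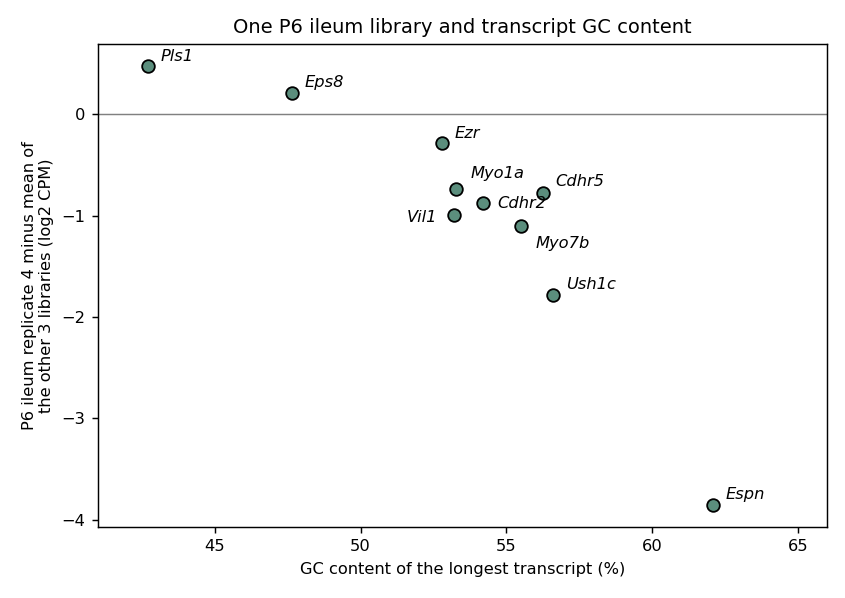
Difference of P6 ileum replicate 4 from the mean of the other 3 P6 ileum libraries (log2 CPM) for each of the 10 genes against the GC content of its longest transcript (%). The points fall from 0.48 for Pls1 at 42.7% GC to -3.85 for Espn at 62.1%.

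Beside the members stood 64 other genes, of the microvillus, terminal web and keratins, apical delivery and enterocyte transcription factors, of which 62 were tested. With age in the jejunum 17 passed as higher and 13 as lower, and in the ileum 23 and 8, beside 24.7% higher and 26.9% lower of all genes in the jejunum and 25.5% and 30.1% in the ileum. Between regions, 5 were higher in the jejunum and 8 lower at P6, and 4 and 6 at P36, beside 11.1% and 14.8% of all genes at P6 and 8.3% and 7.8% at P36. Among the partners of the tip complex, Anks4b, the scaffold that joins Ush1c and Myo7b, had log2 fold changes of -0.62 (jejunum) and -0.65 (ileum) with age (adjusted p = 0.0210 and 0.0149, edgeR). Calml4, the light chain of Myo7b, was at -0.05 and 0.01. Of the membrane linkers, Rdx (radixin), a relative of Ezr, went from 22.5 to 37.2 CPM in the P6 jejunum to 0.176 to 2.20 CPM at P36, a log2 fold change of -4.76 ± 0.58 (adjusted p = 4.35e-06), and by -6.17 ± 0.62 in the ileum (5.72e-07). Stk26, a kinase that phosphorylates ezrin, changed by -4.80 and -4.46 (1.28e-08 and 3.89e-08). The ezrin-binding scaffold Slc9a3r1 was at 0.54 and 0.82 (0.201 and 0.0522). Ezr itself, at 0.47 and 0.54, passed in neither region.

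Cobl, an actin nucleator of the brush border, was higher at P36 in both regions, by 4.12 ± 0.32 (jejunum) and 2.66 ± 0.30 (ileum) (adjusted p = 3.30e-08 and 2.18e-06, edgeR). Krt20, the keratin of mature enterocytes, rose by 4.20 and 5.34 (1.38e-08 and 1.97e-09), and Actb was at 0.58 and 0.96 (0.0783 and 0.00583). The apical delivery genes Rab11a and Stx3 changed by -1.55 and -1.08 (jejunum) and by -1.68 and -1.65 (ileum) (adjusted p = 1.26e-05, 3.45e-04, 5.52e-06 and 5.86e-06). Of the factors whose motifs were searched, Hnf4g had log2 fold changes of 2.37 (jejunum) and 0.74 (ileum) (adjusted p = 1.08e-06 and 0.0162), Hnf4a was at -0.10 and 0.39 (0.529 and 0.0158) and Cdx2 at 0.07 and 0.30 (0.738 and 0.134). Gata4 was higher in the jejunum at both ages, by 3.28 and 4.17 (0.00844 and 0.00372).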

How the data were processed

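Epithelium was released from intestinal segments with EDTA, and stranded mRNA libraries were sequenced. The authors used Trimmomatic (0.38) for adapters, STAR for alignment to mm10 (2.5.3 in the submitters' processing notes, another version in the study's methods) and featureCounts of Subread (1.6.3) for reads per gene. The deposited values are these raw counts, 1 table per library, with the exon length of each gene. Whether counting used strand was not settled from the sources used here.

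From the counts, genes were filtered with filterByExpr on the 4 groups (13429 of 24421 kept), scaled by TMM and tested with edgeR (4.0.16, R 4.3.3) by quasi-likelihood over all 16 libraries with 4 group means. The adjusted p is Benjamini-Hochberg over all genes tested, with a threshold of 0.05. Levels are CPM, and CPM per kb of exon where genes are compared. DESeq2 (1.42.0), edgeR with the mouse as a fixed block for regions and the interaction, limma (3.58.1) with the mouse as a random block for the ages, other scalings, a fit with sex, no filter, the 8 libraries compared alone, and leaving out each library were alternatives. A GC correction by loess (span 0.3), and leaving out 2 libraries together, were added after the data were seen.

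Replicates are separate mice, and both regions of a mouse carry its label. Deviations of the 2 regions of a mouse from their group means correlated at 0.157 to 0.391 (P6) and 0.240 to 0.347 (P36). Regions of different mice averaged -0.106 and -0.101. Deviations cancel within a group, so this average follows from the same-mouse values and adds no evidence of its own. On simulated counts with 200 of 13429 genes changed, a log2 fold change of 1 was recovered for 88 (P6 regions), 78 (P36 regions), 82 (jejunum with age), 93 (ileum with age) and 12 genes (interaction), and one of 3 for 198, 199, 198, 197 and 186. The simulation drew the spread of each gene from the trend, with no library apart from its group. Fewer genes were changed than the real comparisons called, so these rates do not give the power of the tests here.

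Members and gene lists were chosen with earlier results of these data known, and the motifs after the promoters were seen. All members are named. From each list of other genes, up to 3 with the smallest adjusted p per comparison could be named, plus Anks4b, Calml4, Slc9a3r1, Hnf4a, Hnf4g, Cdx2, Actb and Krt20.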

Additional observations from a re-analysis of the deposited data

Results flagged for a closer look

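For 5 members and for the summed set, P6 ileum replicate 4 was far from the rest of its group, by Dixon's test for a sample apart from its group. It held 752 CPM of Vil1, where the nearest library had 1444 CPM. Espn was at 4.32 CPM against 60.8 CPM, Cdhr2 at 1972 against 3509 CPM, Cdhr5 at 1678 against 2761 CPM and Ush1c at 76.7 against 255 CPM. The summed level of the 10 genes was 2102 CPM per kb, against 3246 in the nearest library. In all 44 groups of 4 values were examined and 6 passed the limit, where chance alone passes about 1 in 20. All 6 are the same library, so they are not independent of each other. For the members' regional and age differences, values without this library that turn a sign, add a call or move a difference by over 1.5 times stand beside the result.

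No member had a regional difference that changed with age past the threshold (edgeR's quasi-likelihood interaction). Of the 62 genes tested from the lists of other genes 4 did, beside 8.69% of all genes tested. For Hnf4g, a transcription factor of enterocytes, the jejunum-over-ileum log2 difference at P6 minus that at P36 was -1.62 (adjusted p = 0.00731). It was 1.26 for Baiap2l1 (5.91e-05), which lies at the tips of microvilli, -1.46 for Cobl (0.0356) and 1.08 for Myo1c (0.0313). Baiap2l1 was at 153 to 189 CPM in the P6 jejunum and 74.9 to 81.5 CPM in the P6 ileum, against 119 to 125 and 116 to 145 CPM at P36. Myo1c was at 45.3 to 50.0 CPM in the P36 jejunum and 92.1 CPM or more in the P36 ileum, and P6 ileum replicate 4 held 40.0 CPM of it against 90.5 to 101 CPM in the rest of its group.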

How the results depend on the processing

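The calls of Vil1, Myo1a, Eps8 and Cdhr5 with age in the jejunum, of Myo1a, Cdhr2 and Cdhr5 in the ileum and of Eps8 between regions at P6 held without each single library and under all other fits at the 0.05 threshold. The exception among called changes was Vil1 in the ileum, lost with scaling to epithelial genes (0.35). The cause of changes between settings was not tested. Counts of members called are given as P6 regions, P36 regions, jejunum with age, ileum with age and interaction (1, 0, 4, 4 and 0 as reported). After each count, the genes called in all by the same fit stand in brackets. As reported these were 3484, 2163, 6927, 7475 and 1167. Requiring a log2 fold change above 2 gave 0 at P6 (873) and 1 with age in either region (2209 and 2204). DESeq2 gave 2 at P6 (4069), 1 at P36 (2706), 5 in the jejunum (7271) and 1 interaction (1713). Library totals gave 5 in the jejunum (6824), as did sex as a covariate (6846). The 8 libraries of a comparison alone gave 2 at P6 (2598) and 8 in the jejunum (8901). Scaling to epithelial genes gave 4 at P36 (1931), 6 in the jejunum (6615) and 6 in the ileum (8653). A GC correction gave 3 at P6 (4482), 2 at P36 (3099), 5 in the jejunum (7892), 6 in the ileum (8491) and 1 interaction (1825). With the block it gave 4 at P6 (5082), 4 at P36 (3813) and 1 interaction (2297). Without P6 ileum replicate 4 and P36 ileum replicate 3 together the counts were 2 at P6 (5067), 8 in the jejunum (8943), 8 in the ileum (8403) and 1 interaction (2122). Leaving out single libraries gave 1 to 2 (2605 to 4450), 0 to 2 (1418 to 3922), 4 to 6 (6286 to 8547), 4 to 6 (7005 to 8465) and 0 to 1 (835 to 1912). With the mouse as a replicate block (edgeR for regions and interaction, limma for ages), the fit added 2 calls and changed no other. These were Pls1 at P36 (count 1, among 2437 genes) and the Eps8 interaction (count 1, among 1294 genes). Without division by length the mean share of Vil1 was 12.9% (P6 jejunum), 28.0% (P36 jejunum) and 25.6% (P36 ileum), and that of the cadherins in the P6 jejunum 46.8%.

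Signs turned only for differences that were not called as reported. With library totals alone, which move the median of all genes by -0.29 (P6 regions), -0.14 (P36 regions) and -0.15 (interaction), these were Vil1 (-0.0866), Ezr (-0.13) and Cdhr5 (-0.26) at P6, Ezr (-0.0155) and Eps8 (-0.0852) at P36, and Ush1c in the jejunum (0.0409). With epithelial scaling, which moves it by -0.12, 0.25, -0.38, -0.75 and -0.37, they were Cdhr5 at P6 (-0.00772), Espn in the jejunum (-0.23), and Ezr (-0.23), Pls1 (-0.40) and Ush1c (-0.47) in the ileum. With the GC correction they were Eps8 at P36 (-0.00129), Cdhr5 at P6 (-0.24, and -0.22 with the block), Ush1c in the jejunum (0.0641) and Eps8 in the ileum (0.10). Without both ileum libraries they were Vil1 (-0.0112) and Cdhr5 (-0.15) at P6, Espn (-0.00893), Cdhr5 (-0.0461), Eps8 (-0.10) and Ezr (-0.16) at P36, and Ush1c (-0.0182) and Eps8 (0.13) in the ileum. Over single libraries left out, the ranges that include 0 were -0.13 to 0.0903 for Cdhr5 at P6, -0.0567 to 0.54 for Cdhr5, -0.11 to 0.30 for Eps8, -0.0195 to 0.57 for Espn and -0.17 to 0.48 for Ezr at P36, -0.0977 to 0.0524 for Ush1c in the jejunum, and -0.14 to 0.29 for Ush1c and -0.35 to 0.0701 for Eps8 in the ileum. Depth limited little, with 88 counts of Espn in 1 library as the lowest.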

Other observations

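The genes whose profile over the 16 libraries was most like the mean profile of the 10 members were Ilvbl, Tmbim6, 2900026A02Rik, Tbc1d10b and Prr14, with a root mean square difference of 0.163 to 0.197 log2 CPM after each profile was centred on its own mean. None of the 5 passed the test in any comparison (edgeR's quasi-likelihood test). The members themselves lay farther from their own mean, which averages genes that rose and genes that fell. Ezr was nearest at 0.24 (rank 30 of 13429), then Ush1c at 0.27 (rank 66), and Myo1a was farthest at 1.27 (rank 10923).

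The myosins and cadherins of the set can be set against Vil1 within a library. Myo1a stood at 0.169 to 0.278 of the Vil1 level per kb in the P6 libraries and at 0.548 to 0.775 in the P36 libraries. Cdhr2 stood at 1.33 to 1.98 times Vil1 at P6 and 0.277 to 0.402 at P36, so neither ratio overlapped between ages. Eps8 stood at 0.124 to 0.289 of Vil1 at P6 and 0.0462 to 0.0943 at P36.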
